A study of Homo sapiens with 204 samples.

Results

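The 46 genes described here encode the proteins that license and fire DNA replication origins and that build, load and serve the replication fork. They were taken as a list of named genes, each matched by its symbol to an Ensembl identifier, and 46 of 46 were found among the 41379 genes of the RNA-seq table and among those of the Ribo-seq table. All 46 also had at least 1 CPM (counts scaled to a fixed total in each library) in at least 11 libraries of either assay, the filter used for testing. The samples are cultures of A549, an established line from a human lung adenocarcinoma in which p53 is wild type, transfected for 24 h with small interfering RNA (siRNA) at 40 nM. The knockdowns hit 75 ribosomal proteins, 1 at a time (44 of the large and 31 of the small ribosomal subunit), and the control cells received non-targeting siRNA. All cells were given cycloheximide, which holds ribosomes in place, shortly before lysis, and each lysate was split between RNA-seq (mRNA amounts) and Ribo-seq (ribosome-protected footprints on coding sequences). Each assay has 91 knockdown libraries, with 2 libraries for 16 targets and 1 for 59, and 11 control libraries.

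Origins are licensed and fired in steps that cells keep apart in time. In G1, the origin recognition complex with CDC6 and CDT1 loads the MCM2-7 helicase onto DNA as an inactive double ring. At the start of S phase, kinases and factors such as MCM10, CDC45 and the GINS complex turn the ring into a moving helicase, polymerase alpha with primase lays down primers, and polymerases delta and epsilon, held by the sliding clamp PCNA, extend them. Most of these genes are textbook targets of the E2F transcription factors, which are released when cyclin-dependent kinases inactivate the RB family. The CDK inhibitor p21, encoded by the p53 target CDKN1A, blocks that release, and p53 itself is stabilised when ribosomal proteins such as RPL5 and RPL11 bind MDM2 after ribosome assembly is disturbed.

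Libraries held between 18.8 and 63.6 M counts (M, mega-counts) in RNA-seq, with a median of 27.8 M, and between 7.77 and 57.2 M in Ribo-seq, with a median of 23.8 M. The targeted mRNA lay below all controls in 91 of 91 knockdown libraries. Sample titles fall into a numbered set (6 controls, 16 targets) and an unnumbered set (5 controls, 59 targets), and the columns of the tables form 3 runs. The main fits over all libraries carried a term for the title set but none for the run. Those for the 16 targets used the numbered titles alone and had neither term. Numbered controls lie in runs 1 and 3 and unnumbered controls in run 2, so the title set does not stand for the run. In RNA-seq, control 20_2 stood apart, with 20.1% of genes more than 1 log2 unit below the other controls, against at most 2.07% in any other control. A549 and lung epithelial markers summed to 5552 to 12310 CPM in knockdown and 5905 to 9253 CPM in control RNA-seq libraries. The 6 fibroblast markers summed to 4.26 to 49.5 CPM in knockdown and 10.6 to 25.5 CPM in control libraries, and the 4 blood cell markers in the table to 0.438 to 4.55 and 0.703 to 3.77 CPM, with COL1A2, DCN and PTPRC at 0 in controls. The series calls the second libraries of a target biological replicates and does not say that the cultures were separate, so a p-value here speaks only of spread among libraries, which may be technical. In bulk lysates, fewer cells in S phase and less mRNA per cell cannot be told apart.

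Averaged over all knockdowns, most replication genes fell and none rose. In RNA-seq 33 of the 46 genes were lower and 0 higher in knockdown than in control libraries (edgeR quasi-likelihood test with Benjamini-Hochberg adjustment over 15526 genes, threshold 0.05), where 17.2% of all genes tested were called lower and 13.4% higher. Their median log2 fold change was -0.54, against -0.03 over all genes. Footprints fell on 38 of 46 and rose on 0, with 13.5% of all 12793 genes called lower and 13.2% higher, and a median of -0.66 against 0.00. DESeq2 called 32 lower in RNA-seq and 38 in Ribo-seq. TYMS alone had a positive estimate, and it was not past an unadjusted p of 0.05 in either assay.

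The 4 origin licensing genes, ORC1, ORC6, CDC6 and CDT1, fell in both assays, with a median log2 fold change of -0.91 in RNA-seq and -0.90 in Ribo-seq. CDC6, which helps to load MCM2-7 onto DNA, was present at 14.03 to 127.4 CPM (median 47.8) in the knockdown libraries, against 81.1 to 101.8 CPM (median 94.0) in controls. The groups overlap, but 83 of 91 knockdown libraries lay below every control of their title set, where 23.3% of all gene and library pairs did so. The fitted change of CDC6 was -0.91 ± 0.22 (log2 fold change ± SE; adjusted p = 0.000731) in RNA-seq and -1.03 ± 0.23 (adjusted p = 0.000289) in Ribo-seq. CDT1, which brings MCM2-7 to the origin, ranged from 4.19 to 67.7 CPM (median 24.4) in knockdowns and from 38.3 to 112.7 CPM (median 43.3) in controls. Its highest control values, 73.9 and 112.7 CPM, were those of controls 20_1 and 20_2. CDT1 was at -0.95 ± 0.25 (adjusted p = 0.00235), and at -0.79 (adjusted p = 0.0216) without those 2 libraries.

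All 6 MCM2-7 helicase subunits fell in both assays, and close to one another: from -0.55 ± 0.22 for MCM3 to -0.84 ± 0.18 for MCM7 in RNA-seq, and from -0.60 ± 0.22 for MCM3 to -0.997 ± 0.21 for MCM4 in Ribo-seq. The MCM3 call was lost in RNA-seq without control 20_2 (adjusted p = 0.0727) or without both 20_1 and 20_2 (adjusted p = 0.116), and in Ribo-seq without both (adjusted p = 0.0580). MCM4 had 35.9 to 227.4 CPM (median 118.0) in knockdown and 170.1 to 250.5 CPM (median 216.5) in control RNA-seq libraries. Its footprints ran from 76.2 to 613.9 CPM (median 248.2) in knockdowns, against 440.2 to 575.9 CPM (median 509.9) in controls, and 87 of 91 knockdown libraries were below all controls of their set (24.1% over all genes). MCM7 was at 55.3 to 379.6 CPM (median 153.6) in knockdown and 215.4 to 585.9 CPM (median 268.0) in control RNA-seq libraries. For MCM7, too, controls 20_1 and 20_2 were the highest (456.6 and 585.9 CPM), and the change without them was -0.70 (adjusted p = 0.00298).

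Of the 6 helicase activation genes, 6 fell in RNA-seq and 5 in Ribo-seq. MCM10, which helps to activate the helicase at a firing origin, had 5.40 to 76.2 CPM (median 28.5) in knockdowns and 40.5 to 72.0 CPM (median 66.3) in controls, and changed by -0.97 ± 0.26 (adjusted p = 0.00286). GINS1, a subunit of the GINS complex, had 8.80 to 194.2 CPM (median 63.7) in knockdowns and 91.5 to 140.8 CPM (median 124.8) in controls, a change of -0.80 ± 0.23 (adjusted p = 0.00517). The GINS subunits were not alike: GINS4 changed by -0.34 ± 0.13 (adjusted p = 0.0334) in mRNA, a call lost without control 20_2 (adjusted p = 0.0571), and its footprints were at -0.30 ± 0.13, short of the threshold (adjusted p = 0.0817).

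Primase and polymerase genes changed less, with medians of -0.42 in RNA-seq (6 of 9 lower) and -0.55 in Ribo-seq (9 of 9 lower). POLA2, the B subunit of polymerase alpha, had 8.86 to 51.1 CPM (median 24.8) in knockdowns, against 32.004 to 60.2 CPM (median 38.1) in controls, with a change of -0.54 ± 0.17 (adjusted p = 0.00908). POLE, the catalytic subunit of the leading-strand polymerase, was at 20.7 to 117.2 CPM (median 61.0) in knockdowns and 70.8 to 164.1 CPM (median 83.3) in controls. Its change of -0.51 ± 0.17 (adjusted p = 0.0165) lost its call without controls 20_1 and 20_2 (adjusted p = 0.0712). POLA1, PRIM1 and POLE2 were called only on footprints; for POLA1, the catalytic subunit of polymerase alpha, the values were -0.23 ± 0.14 (adjusted p = 0.209) in RNA-seq and -0.45 ± 0.16 (adjusted p = 0.0243) in Ribo-seq.

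The clamp group held genes with large and with small changes. ATAD5, which unloads PCNA, fell (log2 fold change -1.14 ± 0.24 in RNA-seq and -0.94 ± 0.22 in Ribo-seq, adjusted p = 0.000124 and 0.00069). Its mRNA was at 1.77 to 46.4 CPM (median 13.1) in knockdown and 4.05 to 44.2 CPM (median 22.99) in control libraries, so the ranges overlap fully in RNA-seq. On footprints they overlap less, with 4.07 to 45.4 CPM (median 20.8) in knockdowns, against 31.1 to 52.6 CPM (median 40.7) in controls. RFC5, a subunit of the clamp loader, changed by -0.49 ± 0.16 (adjusted p = 0.0107), while RFC1, its large subunit, was at -0.05 ± 0.12 in RNA-seq and -0.12 ± 0.10 in Ribo-seq. PCNA itself was not called in either assay. It had 102.4 to 382.7 CPM (median 213.9) in knockdown and 168.5 to 266.0 CPM (median 222.3) in control RNA-seq libraries, with -0.05 ± 0.11 (adjusted p = 0.773) in RNA-seq and -0.19 ± 0.11 (adjusted p = 0.232) in Ribo-seq. Of the 91 knockdown libraries, 36 lay below and 19 above all PCNA controls of their set. Over all genes, 23.3% of gene and library pairs lay below and 22.6% above.

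Of the 3 subunits of replication protein A, which coats single-stranded DNA, RPA2 fell, at -0.56 ± 0.14 in RNA-seq and -0.70 ± 0.15 in Ribo-seq. RPA2 had 4.496 to 58.5 CPM (median 28.96) in knockdowns and 38.3 to 61.3 CPM (median 46.1) in controls. RPA3 was at -0.22 ± 0.10 (adjusted p = 0.102) and -0.27 ± 0.10 (adjusted p = 0.0285), and RPA1 passed the threshold in neither assay. Among the Okazaki fragment genes, the flap endonuclease FEN1 had 8.21 to 82.0 CPM (median 35.6) in knockdowns, against 60.6 to 110.8 CPM (median 78.4) in controls. DNA2, a nuclease-helicase for long flaps, changed by -0.52 ± 0.16 (adjusted p = 0.00714) in mRNA and -0.88 ± 0.20 (adjusted p = 0.000486) on footprints. LIG1, the ligase that joins the fragments, was called in neither assay (-0.25 ± 0.12, adjusted p = 0.116, and -0.22 ± 0.12, adjusted p = 0.154).

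Of the 3 chromatin assembly genes, 2 fell in RNA-seq and 3 in Ribo-seq. ASF1B, a histone chaperone of dividing cells, had 3.11 to 59.0 CPM (median 17.8) in knockdowns and 35.1 to 84.7 CPM (median 41.4) in controls. For ASF1B, 82 of 91 knockdown libraries were below all controls of their set (23.3% over all genes). CHAF1A, the large subunit of the assembly factor CAF-1, changed by -0.79 ± 0.22 (adjusted p = 0.00412). CHAF1B, a smaller CAF-1 subunit, was at -0.46 ± 0.20 (adjusted p = 0.0631) in RNA-seq and -0.63 ± 0.20 (adjusted p = 0.0126) in Ribo-seq. In nucleotide supply, RRM2, the small subunit of ribonucleotide reductase, whose level follows S phase, and the thymidine kinase TK1 fell, at -0.71 ± 0.22 (adjusted p = 0.00834) and -0.64 ± 0.17 (adjusted p = 0.00264). RRM1, the large subunit of the same enzyme, was at -0.06 ± 0.12 (adjusted p = 0.724) in RNA-seq, and thymidylate synthase TYMS at 0.08 ± 0.10 (adjusted p = 0.592). TYMS had 26.6 to 196.0 CPM (median 132.3) in knockdowns, against 97.0 to 140.8 CPM (median 127.4) in controls. Of the 91 knockdown libraries, 26 were below and 38 above all TYMS controls of their set (23.3% and 22.6% of pairs over all genes). FAM111B, a protease of proliferating cells, had the lowest fitted value of the 46 in both assays, -1.64 ± 0.36 and -1.54 ± 0.32. Its mRNA is scarce, at 0.259 to 34.4 CPM (median 3.01) in knockdowns and 1.99 to 24.3 CPM (median 14.2) in controls, so its single-library values are imprecise.

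**Figure D1:**
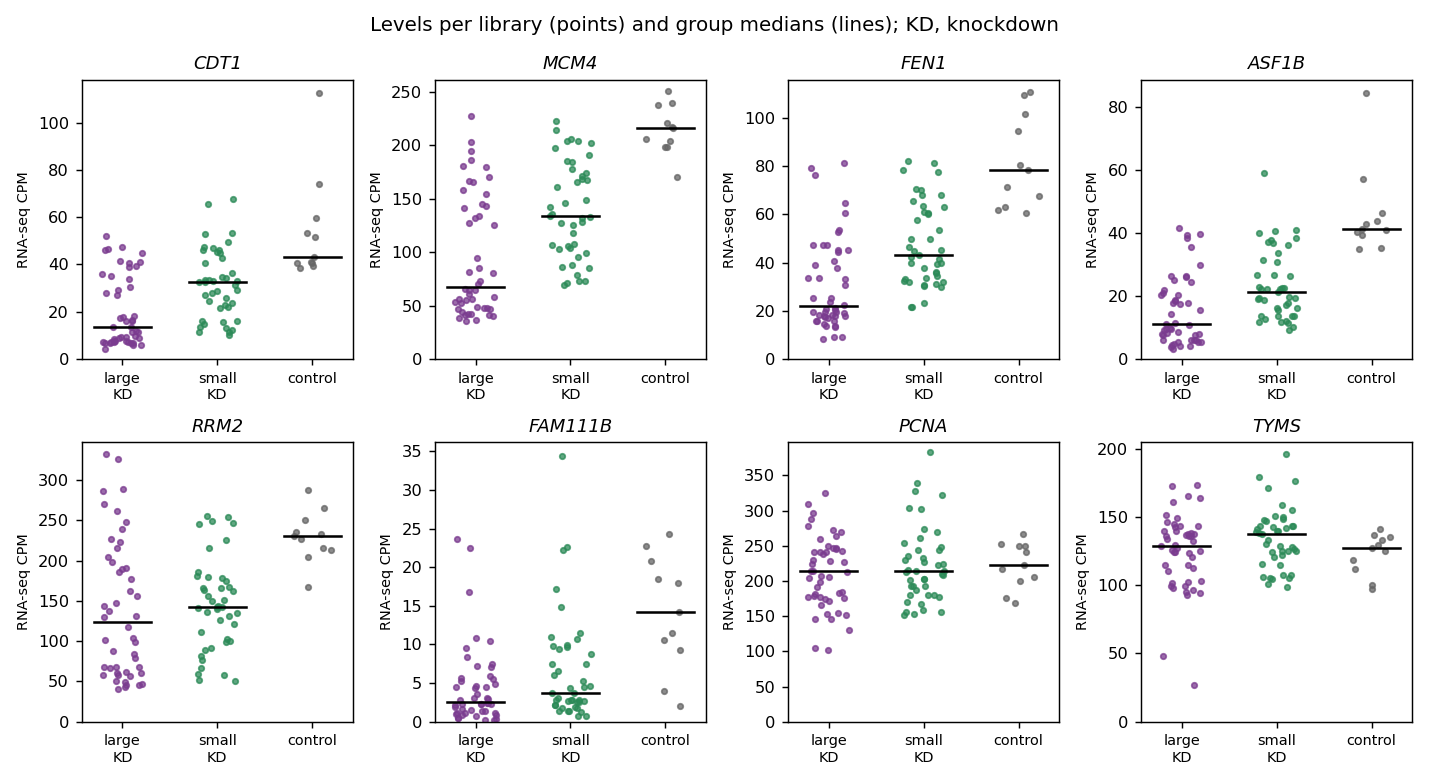
RNA-seq level (CPM, linear axes from 0) of 8 replication genes in each library of large-subunit knockdowns (n = 48), small-subunit knockdowns (n = 43) and controls (n = 11), with lines at the group medians. CDT1, MCM4, FEN1 and ASF1B are lowest in the large-subunit knockdowns, and the points of PCNA and TYMS overlap in all 3 groups.

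**Figure D2:**
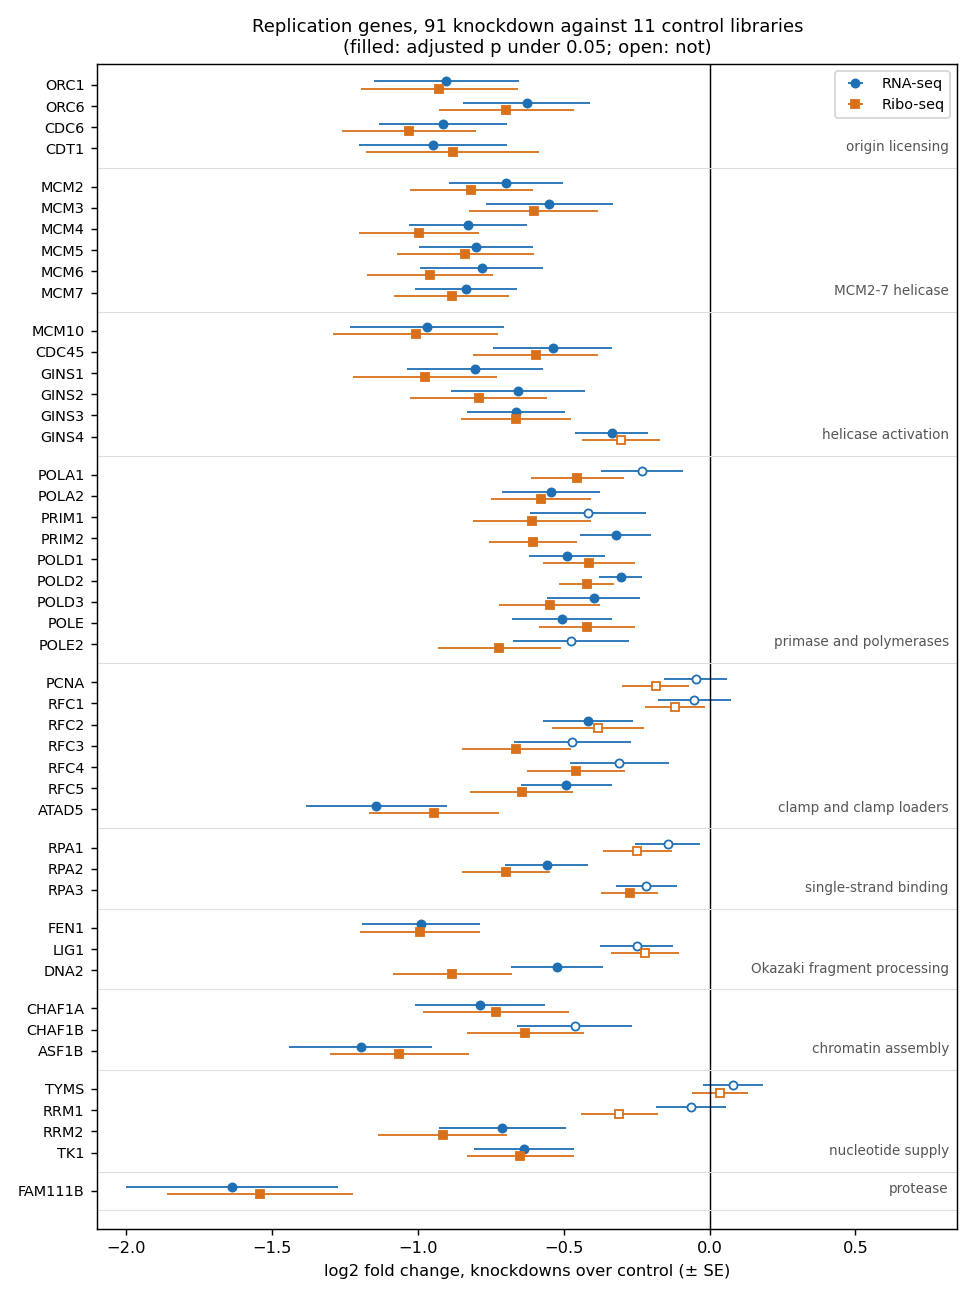
Fitted log2 fold change of each of the 46 genes, 91 knockdown over 11 control libraries, by role, in RNA-seq (circles) and Ribo-seq (squares), with bars of 1 SE and open symbols where the adjusted p is not under 0.05. All estimates but those of TYMS lie left of 0, from -1.64 for FAM111B to 0.08 for TYMS in RNA-seq.

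These counts rest on the pooled libraries. Within the numbered titles alone 10 of the 46 genes were lower in RNA-seq and 20 in Ribo-seq, and within the unnumbered titles alone 10 and 8. The shares of all genes called in these smaller fits are not given here, so these counts show no excess by themselves. A test of whether the knockdown effect differed between the title sets called 0 of 46 genes and 0 genes in all in either assay (edgeR), with 0 of 46 at an unadjusted p under 0.05 and 0 by DESeq2. Control 20_2 and its companion 20_1 had 1.99 and 3.93 CPM of FAM111B and 4.05 and 7.51 CPM of ATAD5 in RNA-seq, while the other numbered controls had 11.4 to 24.3 and 19.1 to 44.2 CPM. On footprints the same 2 lysates were not low, with 35.2 and 29.4 CPM of FAM111B, against 27.04 to 52.1 CPM in the other numbered controls. Of the 30 genes chosen to be named, the calls lost without both were those of MCM3, GINS4, POLE and RFC2 in RNA-seq and of MCM3, POLD1, POLE and CHAF1A in Ribo-seq. Without both, 28 of the 46 genes were lower in RNA-seq and 34 in Ribo-seq (a choice made once the control values were known).

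Translation efficiency, the footprint change over the mRNA change, moved little. In the model over both assays 0 of 46 genes were called, against 0.377% of all genes (0.024% lower and 0.353% higher), with 0 of 46 at an unadjusted p under 0.05 and a median log2 change of -0.08. Because both assays come from the same lysate, the ratio was also tested per lysate with limma. That fit called 7 of 46 lower and 0 higher, where 2.37% of all genes were lower, 1.55% higher and 3.93% changed in either direction. The 7 are MCM4 (-0.22 ± 0.05, adjusted p = 0.00166), RRM2 (-0.25 ± 0.06, adjusted p = 0.00465), RRM1 (-0.30 ± 0.07, adjusted p = 0.00591), POLA1 (-0.29 ± 0.08, adjusted p = 0.0181), DNA2 (-0.52 ± 0.16, adjusted p = 0.0360), RFC5 (-0.21 ± 0.06, adjusted p = 0.0384) and MCM6 (-0.23 ± 0.07, adjusted p = 0.0497). Over the 75 targets, the median translation efficiency of the 46 genes lay between -0.30 and 0.10, with a median of -0.18 in run 1, -0.10 in run 2 and -0.02 in run 3 of the columns.

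Large-subunit knockdowns reduced replication genes more than small-subunit knockdowns did. In RNA-seq 36 of the 46 genes were lower and 0 higher in large- than in small-subunit knockdowns (edgeR, large minus small), against 16.4% and 15.2% of all genes, with a median difference of -0.46 against -0.01. In Ribo-seq 35 were lower and 0 higher, against 11.2% and 10.9% (22.1% in either direction), with a median of -0.45 against -0.01. Within title sets, 7 differed among the numbered and 32 among the unnumbered libraries in RNA-seq, and 12 and 14 in Ribo-seq. For these smaller fits the shares of all genes are not given here. The genes with the smallest adjusted p between the subunits were not those that fell most over all knockdowns. By size of the RNA-seq difference, CHAF1A (-0.73) and FAM111B (-0.70), the gene that fell most over all knockdowns, stood first. LIG1 had 17.3 to 60.3 CPM (median 34.1) in large-subunit and 37.1 to 99.4 CPM (median 54.4) in small-subunit knockdowns, with 40.99 to 118.9 CPM (median 50.4) in controls. The difference of LIG1 was -0.56 ± 0.07 (adjusted p = 1.66e-09), although LIG1 was not called against control. POLA1 had medians of 33.7 CPM in large-subunit and 51.3 CPM in small-subunit knockdowns (difference -0.47 ± 0.09, adjusted p = 2.48e-05), against 53.4 CPM in controls.

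The same comparison set apart both CAF-1 subunits in the list and further polymerase genes. CHAF1A had a median of 12.5 CPM in large-subunit and 34.3 CPM in small-subunit knockdowns (difference -0.73 ± 0.15, adjusted p = 7.82e-05), and CHAF1B one of 12.2 and 27.2 CPM (-0.64 ± 0.13, adjusted p = 8.37e-05). POLE (-0.54 ± 0.11), the primase subunit PRIM1 (-0.62 ± 0.14), the catalytic subunit of polymerase delta POLD1 (-0.39 ± 0.09), RRM1 (-0.34 ± 0.08), RFC5 (-0.46 ± 0.11) and DNA2 (-0.46 ± 0.11) followed, with adjusted p between 0.000116 and 0.000444. On footprints the smallest adjusted p belonged to GINS4 (-0.52 ± 0.09, adjusted p = 1.61e-06), with medians of 28.4 CPM in large-subunit and 45.3 CPM in small-subunit knockdowns, against 45.4 CPM in controls. LIG1 (-0.41 ± 0.08), MCM3 (-0.71 ± 0.15), RRM1 (-0.41 ± 0.09), POLD1 (-0.49 ± 0.10), RFC5 (-0.55 ± 0.12), POLE (-0.49 ± 0.11), PCNA (-0.34 ± 0.08), the clamp loader subunit RFC2 (-0.44 ± 0.11) and CHAF1A (-0.67 ± 0.17) came next. RRM2 was at -0.12 ± 0.16 (adjusted p = 0.597) between the subunits, with medians of 123.7 CPM in large-subunit and 142.6 CPM in small-subunit knockdowns, against 230.9 CPM in controls. In translation efficiency 0 of 46 genes differed between subunits (3.53% of all genes, 2.63% lower and 0.897% higher; 0 of 46 at an unadjusted p under 0.05). The per-lysate fit called 9, where it called 16% of all genes (8.42% lower and 7.56% higher): GINS4 (-0.23), PCNA (-0.21), MCM7 (-0.20), GINS3 (-0.21), CDT1 (-0.27), RFC5 (-0.15) and POLD2 (-0.16) were lower and CHAF1B (0.18) and LIG1 (0.13) higher in large-subunit knockdowns.

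The 16 targets with 2 libraries give a test for single knockdowns against the 6 numbered controls. Over 16 targets and 46 genes, 44.7% of the 736 tests were called lower and 2.72% higher in RNA-seq (12.5% and 10.8% over all genes), and 59.5% lower and 1.09% higher in Ribo-seq (15.4% and 13.9%). A replication gene was lower in a median of 7 of 16 targets in RNA-seq and 9.5 in Ribo-seq, against 1 and 1 over all genes. The targets differed widely. Knockdown of RPL15 and of RPL21, both large-subunit proteins, lowered 44 genes each in RNA-seq (18.9% and 17.3% of all genes lower) and 45 each in Ribo-seq (20.7% and 19.8%). Among small-subunit targets, RPS3 and RPS9 lowered 33 genes each and RPS16 27 in RNA-seq (13.3%, 12.5% and 15.8% of all genes lower). The RPS16 libraries lie in runs 2 and 3 of the columns, while 4 of the 6 numbered controls lie in run 1. The fit for single targets had no term for the run. RPL29 lowered 1 gene in RNA-seq and raised 0 (5.55% and 4.57% of all genes), RPS15A lowered 5 and raised 2 (8.5% and 9.46%), and RPS10 lowered 7 and raised 1 (8.15% and 8.15%). The footprints of 3, 14 and 16 genes fell in these 3 targets, against 6.41%, 9.65% and 13.6% of all genes. The RPL29 count is near that share. A test for any difference among the 16 targets called 45 of 46 genes in RNA-seq (73.6% of all genes), all but RFC1, and 46 in Ribo-seq (78.8%). The 2 libraries of a target gave nearly the same answer: the median log2 ratio of the 46 genes differed between them by a median of 0.060 (at most 0.159) in RNA-seq and 0.038 (at most 0.127) in Ribo-seq.

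MCM4 was called lower in 13 of the 16 targets in RNA-seq and 15 in Ribo-seq, CDC6 in 12 and 12, and ASF1B and FEN1 in 12 and 15. MCM4 had 48.0 and 42.0 CPM in the RPL15 libraries and 53.1 and 49.0 CPM in those of RPL21, against 198.6 to 250.5 CPM in the 6 numbered controls. All 4 knockdown values lie far below the controls. The fitted changes of MCM4 were -2.32 ± 0.10 for RPL15 and -2.08 ± 0.10 for RPL21. FAM111B had 0.26 and 0.26 CPM after RPL15 knockdown, against 1.99 to 24.3 CPM in the numbered controls, and its footprints 2.48 and 1.02 CPM, against 27.04 to 52.1 CPM.

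A few replication genes rose in single knockdowns, less often than genes in general. In RNA-seq 2.72% of their tests were called higher, against 10.8% over all genes, and in Ribo-seq 1.09% against 13.9%. In RNA-seq, TYMS was called higher after knockdown of RPS7, RPS10, RPS15 and RPS15A, and lower in 0 of the 16 targets. PCNA was called higher for RPS7 and RPS15A, RRM1 for RPL24, RPS12 and RPS26, RFC4 for RPS12 and RPS26, and RPA1 and GINS3 for RPS15. The same genes were also called lower in RNA-seq, PCNA and RRM1 in 2 of the 16 targets each, RFC4 in 3, RPA1 in 4 and GINS3 in 10. TYMS had 158.6 and 154.8 CPM in the RPS10 libraries, against 97.0 to 140.8 CPM in the numbered controls, a rise of 0.42 ± 0.11 (adjusted p = 0.00705). Both RPS10 libraries lie above all 6 controls. They lie in run 1, whose controls had 111.8 to 140.8 CPM of TYMS, while the run 3 controls had 100.4 and 97.0 CPM. A run difference was not tested for TYMS either. On footprints, PCNA was called higher for RPS16, TYMS for RPS10, and GINS4 for RPS12 and RPS26. Footprints were called lower in 10 of the 16 targets for GINS3, 8 for RRM1, 7 for PCNA, 5 for GINS4 and RFC4, 4 for RPA1 and 3 for TYMS. The 2 RPS16 libraries lie in runs 2 and 3 of the columns, and 4 of the 6 numbered controls in run 1. Those 4 controls had 472.5 to 638.8 CPM of PCNA footprints, the run 3 controls 725.8 and 737.1 and the run 2 controls 655.4 to 849.6. A run difference was not tested for this call.

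Across all 75 targets the response was graded, with no clean gap. The log2 ratio to the controls of the same title set, as the median over the 46 genes, ran from -1.91 for RPL4 to 0.43 for RPS27L in RNA-seq, with a median of -0.59 over the targets, and 67 of 75 were below 0. Control libraries, set against the other controls of their set, lay between -0.24 and 0.29. In Ribo-seq the range was -2.27 to 0.39 (median -0.66), with 70 of 75 below 0, and the controls lay between -0.20 and 0.18. The large-subunit median was -1.14 (24 of 44 below -1) and the small-subunit median -0.35 (3 of 31 below -1, those of RPS6 at -1.15, RPS18 at -1.13 and RPS19 at -1.04). Within title sets the medians were -0.91 for 4 large-subunit and -0.34 for 12 small-subunit targets in the numbered set, and -1.14 for 40 and -0.46 for 19 in the unnumbered set. Most targets here have 1 library and so no replicate check. All 5 unnumbered controls lie in run 2, so the unnumbered targets of run 3 are set against controls of run 2. After RPL4, the lowest values were those of RPL7 (-1.80), RPL7A (-1.68), RPL32 (-1.68) and RPL30 (-1.68), and their Ribo-seq values were -2.03, -1.74, -1.78 and -1.84. Neighbours in this order, other than RPS27L and the target next to it, differ by less than 0.159, the largest difference between 2 libraries of 1 target, so their order is not resolved.

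Some large-subunit knockdowns left replication genes near control levels. RPL5 was at 0.01 in RNA-seq and -0.21 in Ribo-seq, RPL11 at 0.01 and -0.01, RPL28 at 0.00 and 0.02 and RPL22 at 0.08 and 0.12, all within the spread of the controls in RNA-seq. With RPL4 knocked down 37 of 46 genes were below -1 (4.66% of all genes), with RPL5 0 (0.605%), with RPL11 2 (1.5%) and with RPS27L 0 (2.99%). CDC6 had 14.03 CPM after RPL4, 64.7 CPM after RPL5 and 73.5 CPM after RPL11 knockdown, against 88.8 to 99.7 CPM in the 5 unnumbered controls. MCM4 had 38.8 CPM after RPL4, 186.0 CPM after RPL5 and 227.4 CPM after RPL11 knockdown, against 170.1 to 237.7 CPM. At the high end, next to RPS27L, a paralog of RPS27, stood RPL22, RPS4Y (0.08) and RPS14 (0.08). The RPS27L library had the highest ratio of 25 genes in RNA-seq, among them PCNA with 382.7 CPM of mRNA, against 217.2 to 266.0 CPM in the unnumbered controls, while CDC6 was at 56.7 CPM there and lay below all controls.

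**Figure D3:**
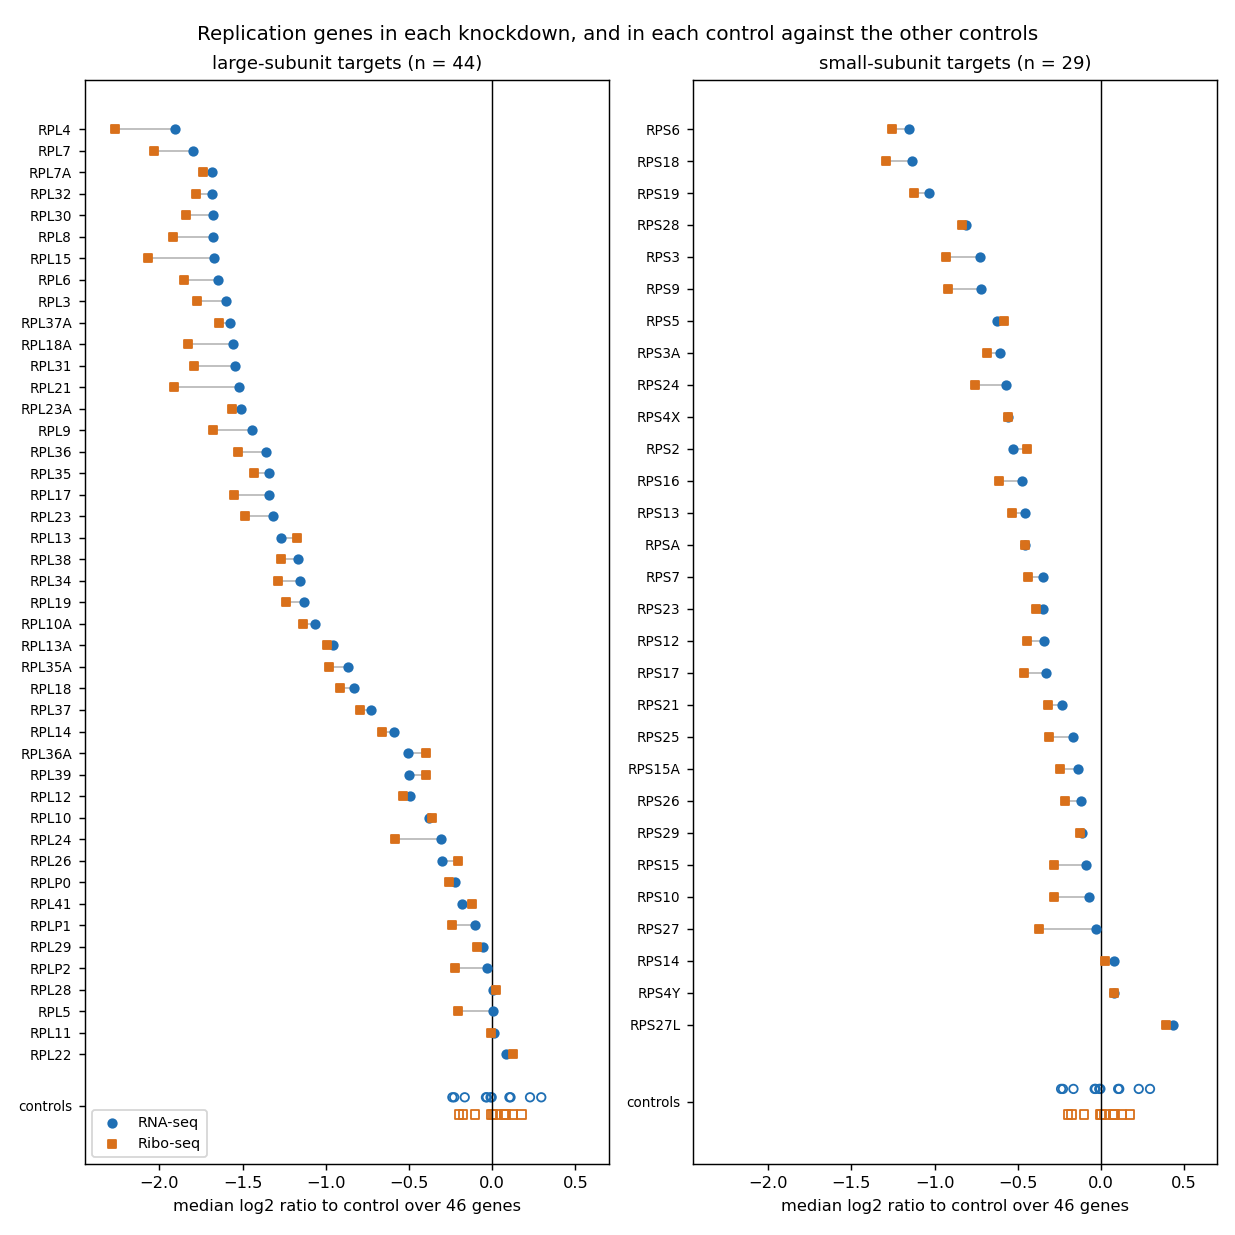
Median log2 ratio to control over the 46 genes (x axis) for large-subunit targets (left) and small-subunit targets (right), 73 of the 75 in all, in RNA-seq (circles) and Ribo-seq (squares), with each control library set against the other controls at the bottom (open symbols). Large-subunit targets reach -1.91 in RNA-seq and -2.27 in Ribo-seq, the small-subunit targets drawn -1.15 and -1.29, and the controls stay between -0.24 and 0.29.

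Most replication genes ranked the 75 targets much alike. The RNA-seq ratio of a gene correlated with the median of the other 45 genes with a median Pearson r of 0.916 over 75 targets, and 29 of 46 genes were over 0.9; the points share controls and libraries, so this is a description. The 6 genes under 0.5 were TYMS (0.29), RPA1 (0.35), RFC1 (0.38), POLD2 (0.39), PCNA (0.46) and RPA3 (0.46). RNA-seq and Ribo-seq medians, which share lysates, correlated with r = 0.99 over the targets.

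**Figure D4:**
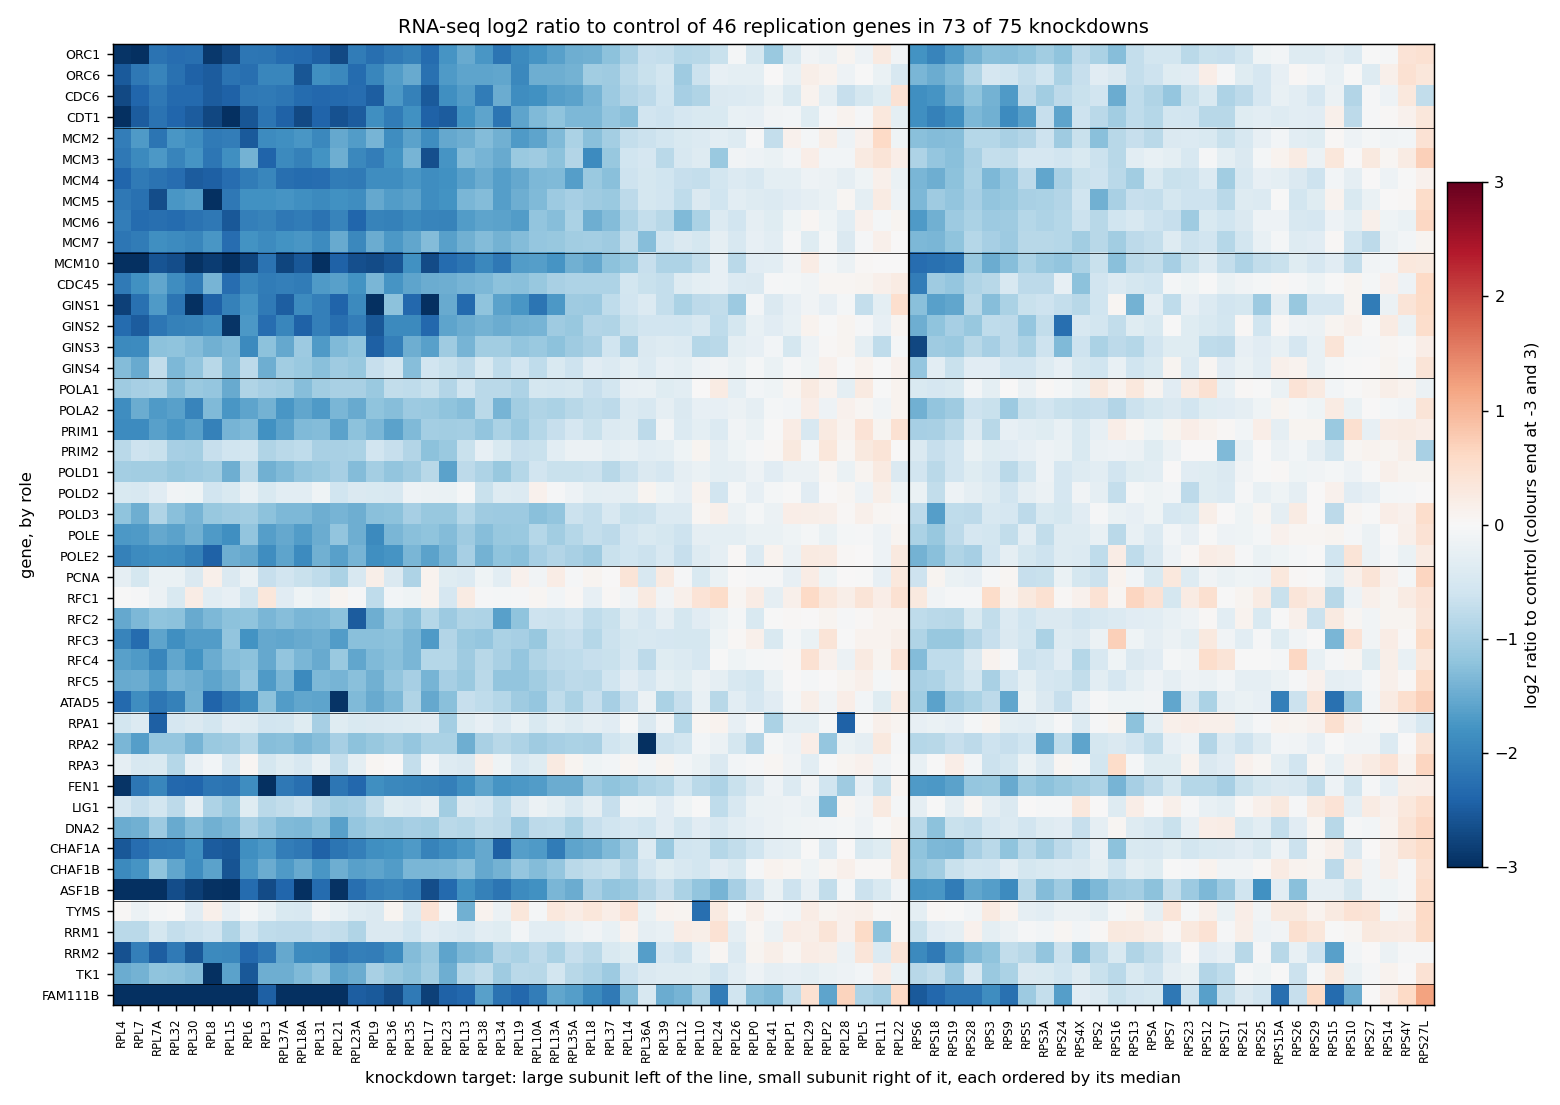
RNA-seq log2 ratio to control (colour, ending at -3 and 3) of each of the 46 genes (lines across, by role) in 73 of the 75 knockdowns (large-subunit targets left of the thick line, small-subunit targets right of it, each ordered by its median). Licensing, MCM, FEN1 and ASF1B lines darken together toward RPL4, while PCNA, RFC1 and TYMS stay pale; isolated dark cells include RPA2 in RPL36A and TYMS in RPL10.

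A few genes were far lower in 1 or a pair of knockdowns than the other replication genes were there. These were chosen after their values were seen and rest on 1 library each. RPA2 had 4.496 CPM of mRNA in the RPL36A library, against 42.3 to 46.9 CPM in the unnumbered controls, and 8.17 CPM of footprints, against 65.6 to 87.1 CPM. Its log2 ratios were -3.17 and -3.15 there and -1.65 and -1.97 in the next lowest target, RPL7, while the other replication genes had medians of -0.50 and -0.39 in the RPL36A library. TYMS had 26.6 CPM in the RPL10 library, against 124.9 to 135.3 CPM in controls, and log2 ratios of -2.27 in RNA-seq and -1.61 in Ribo-seq, where the other genes had medians of -0.38 and -0.34. RPA1 was about equally low in a pair of knockdowns, at 27.8 CPM after RPL7A and 28.2 CPM after RPL28 knockdown. The unnumbered controls had 135.9 to 172.3 CPM of RPA1, and RPL28 left the other replication genes at control levels.

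With RPL8 knocked down, MCM5 was at 2.16 CPM of footprints (43 reads), against 180.4 to 262.4 CPM in the unnumbered controls, a log2 ratio of -6.38 where the next lowest target, RPL7A, had -3.32. Its mRNA was at 8.36 CPM there, against 100.9 to 118.4 CPM, a ratio of -3.61. TK1 was also lowest in the RPL8 library, with 6.20 CPM of mRNA and 15.04 CPM of footprints (ratios -3.74 and -4.49), where the other genes had medians of -1.67 and -1.78. A gap of over 1 log2 unit between the lowest and the next target occurred for 2 of the 46 genes in RNA-seq and 5 in Ribo-seq, where 2.15% and 7.34% of all genes have one. For RPA2 and TK1 the gap was in both assays and the same target.

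The replication genes moved opposite to the p53 targets CDKN1A and MDM2 and along with E2F1 and MKI67 over the knockdowns. Other p53 targets were compared only as averages over all knockdowns. Of 20 p53 targets, 17 rose and 0 fell in RNA-seq over all knockdowns (median log2 fold change 1.06). Of 14 regulators of S phase entry and proliferation, 11 fell and 0 rose. Over all genes tested, 13.4% rose and 17.2% fell. CDKN1A, which encodes p21, was at 1.54 ± 0.34 (adjusted p = 0.000267), MDM2, the ubiquitin ligase of p53, at 1.37 ± 0.29 (adjusted p = 0.000128), E2F1 at -0.95 ± 0.28 (adjusted p = 0.00512), cyclin E2 CCNE2 at -1.21 ± 0.27 (adjusted p = 0.000294) and the proliferation marker MKI67 at -0.62 ± 0.24 (adjusted p = 0.0365). E2F1 footprints were at -0.91, short of the threshold (adjusted p = 0.0503). The median ratio of the 46 genes correlated over 75 targets with that of CDKN1A (Pearson r -0.89, Spearman rho -0.92), MDM2 (-0.84 and -0.88), E2F1 (0.91 and 0.91) and MKI67 (0.84 and 0.82). Without the 2 targets farthest from the median on the x axis, r was -0.88, -0.85, 0.91 and 0.85, and within the title sets r for CDKN1A was -0.80 (16 targets) and -0.89 (59 targets). These values share libraries and controls, and whether any of them sets another was not tested.

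Single targets show the range. CDKN1A was at 2.54 after RPL4, 2.50 after RPL7, 2.95 after RPL7A, 3.21 after RPL32 and 2.98 after RPL30 knockdown, the 5 targets with the lowest replication genes, and at -1.35 after RPS27L, -0.34 after RPL22 and -0.53 after RPS14 knockdown. RPL5 and RPL11 had CDKN1A ratios of -0.05 and 0.17.

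**Figure D5:**
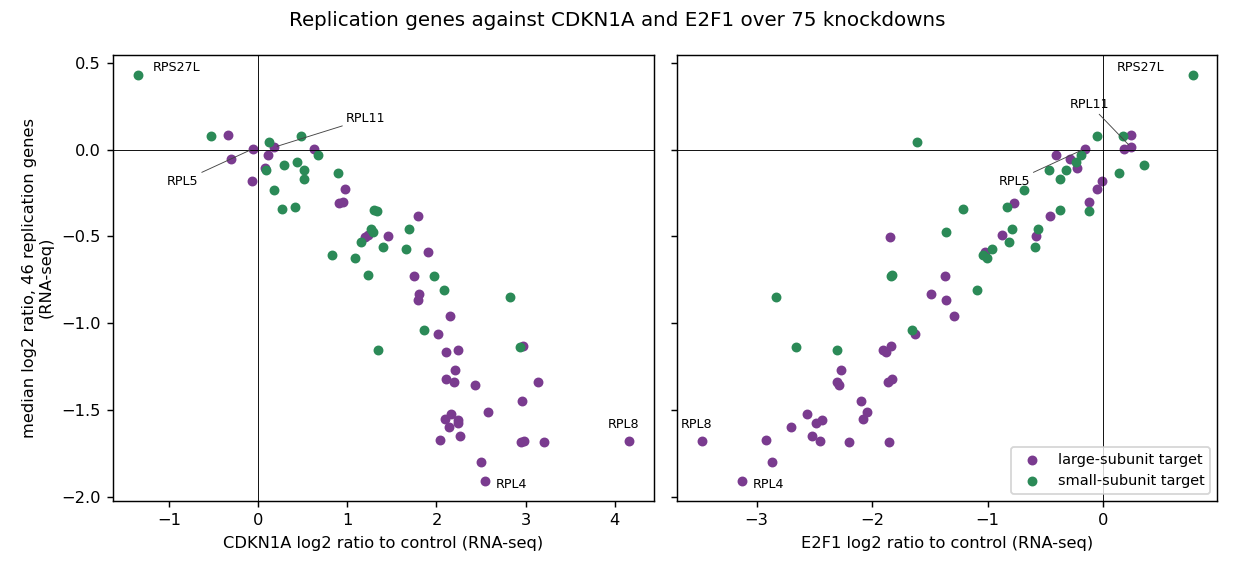
Median RNA-seq log2 ratio of the 46 replication genes (y axis) against the log2 ratio of CDKN1A (left) and of E2F1 (right) in the same knockdown, with 1 point for each of 75 targets and large- and small-subunit targets in different colours. The points fall from RPS27L to RPL4 as CDKN1A increases (r = -0.89) and climb with E2F1 (r = 0.91).

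Other genes of replication that are not among the 46 followed in part. Of 43 such genes, 23 fell and 2 rose in RNA-seq (median -0.37), and of 42 tested in Ribo-seq 26 fell and 3 rose. Over all genes, 17.2% fell and 13.4% rose in RNA-seq, and 13.5% fell and 13.2% rose in Ribo-seq. The counts that rose lie below these shares. The largest falls in RNA-seq were those of the origin firing factor TICRR (-0.999 ± 0.24), the checkpoint mediator CLSPN (-0.92 ± 0.26), the fork repair factor MMS22L (-0.91 ± 0.18), the methylation cofactor UHRF1 (-0.83 ± 0.20), DBF4, the activator of the origin-firing kinase CDC7 (-0.80 ± 0.17), and the clamp loader subunit DSCC1 (-0.77 ± 0.22). The 2 that rose were RRM2B, the p53-inducible partner of RRM1 in ribonucleotide reductase (0.70 ± 0.26, adjusted p = 0.0285), and POLD4, the smallest polymerase delta subunit (0.37 ± 0.10, adjusted p = 0.00363).

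Promoter sequences were compared because most of the 46 genes fell together and E2F factors bind GC-rich words with a run of T at many such genes. RefSeq promoters (GRCh38.p14, 250 bases before to 50 after the start) were at hand for 37 of the 46 genes. The words searched, on both strands, were TTTCCCGC, TTTCGCGC, TTTGCCGC and TTTGGCGC, which overlap in part with one another. At least 1 stood in 17 of the 37 promoters (45.9%), against 5.40% of the 10960 promoters of genes tested in RNA-seq and 7 of 37 (18.9%) of the other replication genes. The word CCAAT, bound by NF-Y, stood in 59.5% of the 37 and 36.6% of promoters of tested genes, and TTTGAA, the core of the CHR element of G2/M genes, in 5.41% and 9.58%. Of the 17 genes with a word 11 fell in RNA-seq (median -0.55), and of the 20 without one 14 fell (median -0.49). The next 6 windows lie just before the start, run 5′ to 3′ on the strand of the gene and carry the E2F word in capitals; the first 4 are of genes that fell in RNA-seq and the last 2, PCNA and TYMS, of genes that did not. They are CDT1 at chr16:88803728-88803787 (plus strand), MCM6 at chr2:135876496-135876555 (minus), MCM7 at chr7:100101398-100101432 (minus), POLA2 at chr11:65261883-65261942 (plus), PCNA at chr20:5126648-5126707 (minus) and TYMS at chr18:657588-657647 (plus).
CDT1: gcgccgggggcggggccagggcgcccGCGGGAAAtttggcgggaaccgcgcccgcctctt
MCM6: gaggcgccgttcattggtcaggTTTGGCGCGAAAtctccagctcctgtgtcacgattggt
MCM7: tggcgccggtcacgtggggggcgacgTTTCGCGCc
POLA2: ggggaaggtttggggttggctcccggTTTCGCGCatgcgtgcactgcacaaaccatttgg
PCNA: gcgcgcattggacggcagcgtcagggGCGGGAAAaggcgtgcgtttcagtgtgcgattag
TYMS: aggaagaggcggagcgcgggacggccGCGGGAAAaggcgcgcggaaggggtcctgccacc
GCGGGAAA in 3 of the windows is TTTCCCGC read on the other strand, and it stands in a gene that fell (CDT1) as well as in PCNA and TYMS. In MCM6 the capitals hold 2 overlapping words. FEN1 and ASF1B, which fell further than most of the 46, have none of the words in their windows, and a match is a run of letters, not a bound site.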

How the data were processed

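RNA-seq and Ribo-seq were measured in 102 libraries each. The authors deposited raw counts per gene, exon counts for RNA-seq and coding-sequence counts for Ribo-seq. STAR 2.6.1, cutadapt 1.8.1, bcl2fastq 2.20.0.422 and GRCh38 are named in the submitters' processing notes. Libraries named in the design but absent from the sample list were not analysed here. From the deposited counts, genes that reached 1 CPM in 11 or more libraries were tested with edgeR 4.0.16 in R 4.3.3 (TMM scaling, quasi-likelihood test, Benjamini-Hochberg adjustment over all genes, threshold 0.05). The title set was a term in the main fits over all libraries. Translation efficiency was the assay by group term of a joint model, and also limma 3.58.1 on log2 ratios per lysate (prior count 2), since the protocol splits each lysate between both assays. Deviations from the group mean in the 2 assays of a lysate correlated with a median r of 0.0900. DESeq2 1.42.0 was an alternative. Ratios for single targets are log2(CPM + 0.5) less the average control value in that title set, which understates changes of low genes. CPM levels are counts scaled to library size, and intervals of counting are small against the spread between libraries except for genes of few reads. The fits were tested on simulated data with known changes.

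The 46 genes and the other lists were chosen with earlier results of these data known. Genes named with values are, for each role, the 2 with the largest absolute change in RNA-seq, those called in translation efficiency or between subunits (up to 10 for each comparison, by smallest p), the 6 other replication genes with the largest change past the threshold and those that rose, 5 genes of context, and the 5 lowest and 5 highest targets. ORC1, ORC6, MCM5, MCM6, GINS3, POLE2, POLD2, RFC1, RFC4 and RPA1, and the targets outside those 10, were named after their values were seen. Runs were read from the order of the columns. Some items that fall under these rules are not reported here.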

Additional observations from a re-analysis of the deposited data

Results flagged for a closer look

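Among 120 groups of controls examined, 5 held a library far from the others, where chance gives about 1 in 20. CDT1 was at 51.7 CPM in RNA-seq of control 3, and MCM10 and POLA1 were at 40.5 and 30.4 CPM in RNA-seq of control 20_2, the library that stood apart over all genes. CHAF1A was at 45.4 CPM in Ribo-seq of control 1, and RRM1 at 349.96 CPM in Ribo-seq of control 3. What set these values was not tested.

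Effects differed between groups of targets, by a test of the difference. Between large- and small-subunit knockdowns 36 of 46 genes differed in RNA-seq and 35 in Ribo-seq, and among the 16 targets with 2 libraries 45 and 46 differed. Large minus small, the log2 differences in RNA-seq were -0.56 for LIG1, -0.47 for POLA1, -0.73 for CHAF1A, -0.64 for CHAF1B, -0.54 for POLE, -0.62 for PRIM1, -0.39 for POLD1, -0.34 for RRM1, -0.46 for RFC5 and -0.46 for DNA2. In Ribo-seq they were -0.52 for GINS4, -0.41 for LIG1, -0.71 for MCM3, -0.41 for RRM1, -0.49 for POLD1, -0.55 for RFC5, -0.49 for POLE, -0.34 for PCNA, -0.44 for RFC2 and -0.67 for CHAF1A.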

How the results depend on the processing

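Counts of lower genes over all knockdowns (33 in RNA-seq, 38 in Ribo-seq) held within 1.5 times under other scalings, filters, DESeq2 and leaving out each control (28 to 32 and 33 to 37). With fewer libraries they were smaller: 10 and 20 in the numbered titles alone, 10 and 8 in the unnumbered titles alone, 10 and 10 in run 1, 8 and 6 in run 2, and 0 and 0 in run 3. Large against small subunits, 36 became 7 in the numbered titles in RNA-seq, and 35 became 12 in the numbered and 14 in the unnumbered titles in Ribo-seq. The shares of all genes called in the fits with fewer libraries are not given here. With the lysate as replicate block, 7 genes instead of 0 changed in translation efficiency over all knockdowns and 9 instead of 0 between subunits. Same-numbered libraries did not deviate together (median r -0.0145 in RNA-seq and 0.0200 in Ribo-seq over 136 pairs), so title numbers do not pair them; with those numbers as replicate block there were 421 and 500 calls over the 16 targets, and 46 and 46 genes differed among them.

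For the 16 targets, leaving out 1 replicate of each leaves a lone library that is assumed to vary like the controls. Calls then numbered 12 to 400 in RNA-seq (349 with all) and 132 to 435 in Ribo-seq (446 with all), the highest with control 20_2 left out in RNA-seq, and genes that differed among targets 0 to 46 and 9 to 46. The median ratio over 75 targets was -0.53 with controls of the same run, against -0.59.

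Some directions turned. The largest turn was that of FAM111B, at -0.70 large minus small in RNA-seq and 0.40 in the numbered titles alone. Over all knockdowns PRIM1 was at 0.0234 in run 1 (-0.42 in all runs), PCNA at 0.0646 in the numbered titles and 0.0694 in run 3, RRM1 at 0.0359 in the numbered titles and 0.12 in run 1, and TYMS at -0.0211 in the unnumbered titles, all in RNA-seq; TYMS was at -0.0025 in the numbered titles and -0.18 in run 3 in Ribo-seq. Large minus small in RNA-seq, PCNA was at 0.0033 in the unnumbered titles, ATAD5 at 0.0577 and RRM2 at 0.0456 in the numbered titles, and RPA3 at 0.0558 without the title set term. In Ribo-seq, RPA2 was at 0.0491 and RRM2 at 0.087 in the numbered titles, RPA3 at 0.16 and TYMS at 0.0021 without the title set term, and TYMS at 0.0026 in the unnumbered titles. The cause was not tested. Depth limits FAM111B most, with 2 footprint reads in its lowest library.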
